A study of Rattus norvegicus with 9 samples.

Results

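Among the 8853 rat Ensembl genes with at least 5 FPKM (a fragment count scaled to transcript length and to the total of the library) in every control library, 22 genes were more than 4-fold lower in every library after oxygen-glucose deprivation/reoxygenation (OGD/R). A gene was chosen by its measured FPKM: it had to lie at 5 FPKM or more in all 3 control libraries and under 25% of its lowest control value in each of the 6 libraries that had gone through OGD/R. The 22 genes are 0.249% of these expressed genes. Without OGD/R replicate 2 the same limits were met by 34 genes, and after quantile normalization by 13. The files list 23426 features in all, of which 22037 carry Ensembl gene identifiers and 1389 are assembled loci without one. Another 8 Ensembl identifiers were left out of the rule beforehand, and 0 of them would have met it.

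The cells were PC12, a line from a rat pheochromocytoma (a tumor of adrenal chromaffin cells) that is used as a model of neurons, and the label of all 9 libraries calls them highly differentiated. The 3 control libraries came from cells without OGD/R. The 3 OGD/R libraries came from cells kept for 4 h in glucose-free medium at 1% oxygen and then returned to normal medium for 6 h. The 3 OGD/R+miR-483-5p libraries, called mimics below, came from cells that received miR-483-5p mimics 48 h before the same OGD/R. No label says that replicates came from separate cultures, so the p-values measure the spread between these libraries, which may be technical.

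OGD/R is a culture model of ischemia and reperfusion. During deprivation a cell saves energy by slowing the synthesis of RNA and protein, and the level of an mRNA is then set by what is still transcribed and by how fast the existing copies decay. Transcripts that turn over quickly can therefore drop within hours, whereas stable transcripts persist. A miRNA acts on top of this by pairing, mainly through its seed, with target mRNAs and shortening their life.

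The miRNA given to the mimic cells is shown because it is the agent that the labels name for this group alone. Its effect and that of the transfection itself cannot be told apart, as the labels name no transfection for the OGD/R group. Its rat form in RefSeq (build GRCr8) has 22 bases, lies at chr1:207247903-207247924 on the minus strand within the Igf2 gene, and carries the seed (bases 2 to 8) in capitals.
rno-miR-483-5p: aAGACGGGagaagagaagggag
The sequence of the synthetic mimic itself is not given in the sources used here.

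The files do not pair their identifiers with gene symbols, and the RefSeq table used here lists no Ensembl identifiers, so none of the 22 genes could be looked up in it and what they encode is not given here. For the same reason, the identity of the cells was not checked against chromaffin markers. The 22 genes are numbered 1 to 22 in the order of their mean control level. Only gene 1, ENSRNOG00000000239, which had the highest control level, and gene 21, ENSRNOG00000057443, which was lost furthest, are given by identifier.

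Over the whole series, 16506 to 17242 features were above 0 in the 6 libraries after OGD/R against 15792 to 16017 in the controls, and total depth is unknown because the values are FPKM. Over features averaging 1 FPKM or more, OGD/R replicate 3 correlated with mimic replicates 1 and 2 (Pearson r = 0.984 and 0.984) more closely than with OGD/R replicates 1 and 2 (0.978 and 0.968). These correlations are across genes, which are not independent replicates. Mimic replicate 3 lay closest to OGD/R replicate 1 (0.985), but was about as close to its own group as to OGD/R replicate 2. It correlated at 0.982 and 0.981 with mimic replicates 1 and 2, and at 0.982 and 0.975 with OGD/R replicates 2 and 3. Comparisons of mimics with OGD/R are therefore given with and without replicate 3 of both groups.

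**Figure D1:**
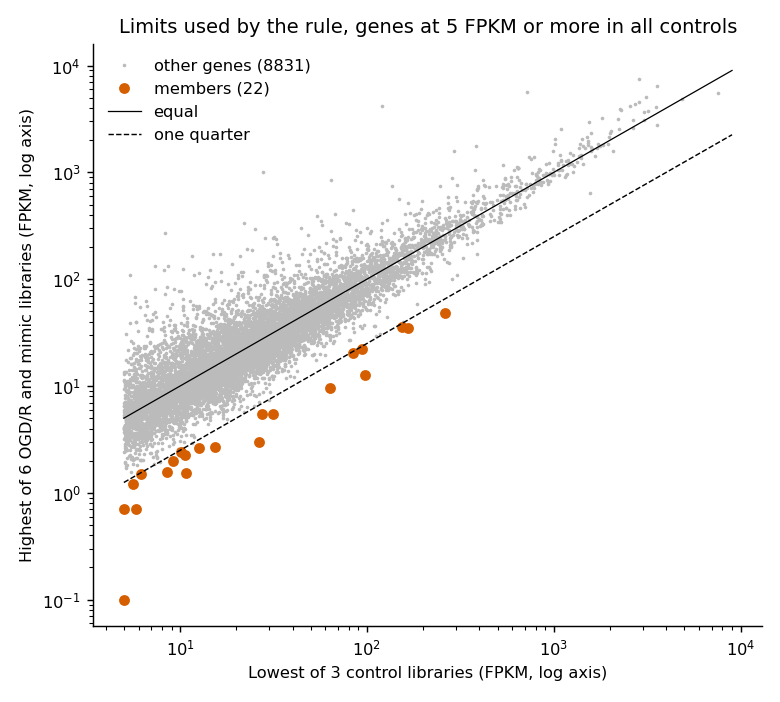
Each point is one Ensembl gene with at least 5 FPKM in all controls, placed by its lowest control value (horizontal log axis, FPKM) and its highest value in the 6 libraries after OGD/R (vertical log axis, FPKM). The 22 chosen genes (orange) lie below the dashed line at 25% of the lowest control, and the solid line marks equal values.

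The choice picked genes at the far edge of the distribution. After OGD/R, the mean of the 6 libraries was 82.7% of the control mean in the median expressed gene, with quartiles of 61.0% and 110%. In the 22 genes it was 1.15% to 19.8%, with a median of 14.5%. These values describe the selection and are not tested, since the same libraries chose the genes. Over all 19394 features tested with limma, 29.8% were called lower after OGD/R and 31.0% lower with mimics, each against control at an adjusted p under 0.05. These were 5781 of the 8913 features and 6012 of the 9622 features called either way. The fits used FPKM as deposited, where the median log2 difference over features averaging 1 FPKM or more was -0.23 and -0.26. The share called lower was not counted after scaling.

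The limit cut through a continuous range. Just inside it were genes 15, 18 and 6, whose highest value after OGD/R was 23.9%, 24.1% and 24.4% of their lowest control value. Just outside were 3 genes at 25.02%, 25.19% and 25.21%. The first of these had 29.82, 34.26 and 37.66 FPKM in the control libraries, 2.7, 7.46 and 2.27 FPKM in the OGD/R libraries and 3.57, 4.71 and 6.05 FPKM in the mimic libraries, so OGD/R replicate 2 alone kept it out. The second had 7.78, 9.19 and 8.33 FPKM in the control libraries, 1.96, 1.49 and 0.84 FPKM in the OGD/R libraries and 0.89, 1.11 and 0.98 FPKM in the mimic libraries, and was likewise kept out by 1 library, OGD/R replicate 1. The third had 156.89, 164.63 and 161.23 FPKM in the control libraries, 31.99, 37.62 and 29.01 FPKM in the OGD/R libraries and 32.77, 36.34 and 39.55 FPKM in the mimic libraries, with mimic replicate 3 as the library over the limit.

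Losses of this size were fewer than gains of the same size, whereas milder losses outnumbered milder gains in the values as deposited but not after either scaling. Among the 8853 expressed genes, 460 had all 6 libraries at less than 1/2 of the lowest control, and 202 had all 6 at more than 2 times the highest control. At 3-fold the numbers were 83 and 70, at 4-fold 22 and 37, and at 5-fold 12 and 17. At 2-fold there were 270 lower and 272 higher after upper-quartile scaling, and 219 and 266 after quantile normalization, and at 3-fold 46 and 88, and 37 and 82. At 4-fold the gains were more numerous under each scaling, with 15 lower and 45 higher after upper-quartile scaling and 13 and 41 after quantile normalization.

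The 22 genes covered a wide range of control levels, from 5.63 to 275 FPKM, with a median of 14.5 FPKM against 24.2 FPKM for all expressed genes. There were 7 genes above 50 FPKM, 3 between 20 and 50 FPKM, 5 between 10 and 20 FPKM and 7 below 10 FPKM. Summed over the 22 genes, the FPKM came to 1165 ± 25.3 (SD, n = 3) in control libraries, 165 ± 45.7 (n = 3) in OGD/R libraries and 154 ± 27.9 (n = 3) in mimic libraries. In bulk RNA, fewer cells that express a gene and less of its RNA per cell cannot be told apart. This sum was 0.180% of all FPKM in the control libraries and 0.0260% and 0.0241% in the OGD/R and mimic groups. The sum is led by the most abundant genes.

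**Figure D2:**
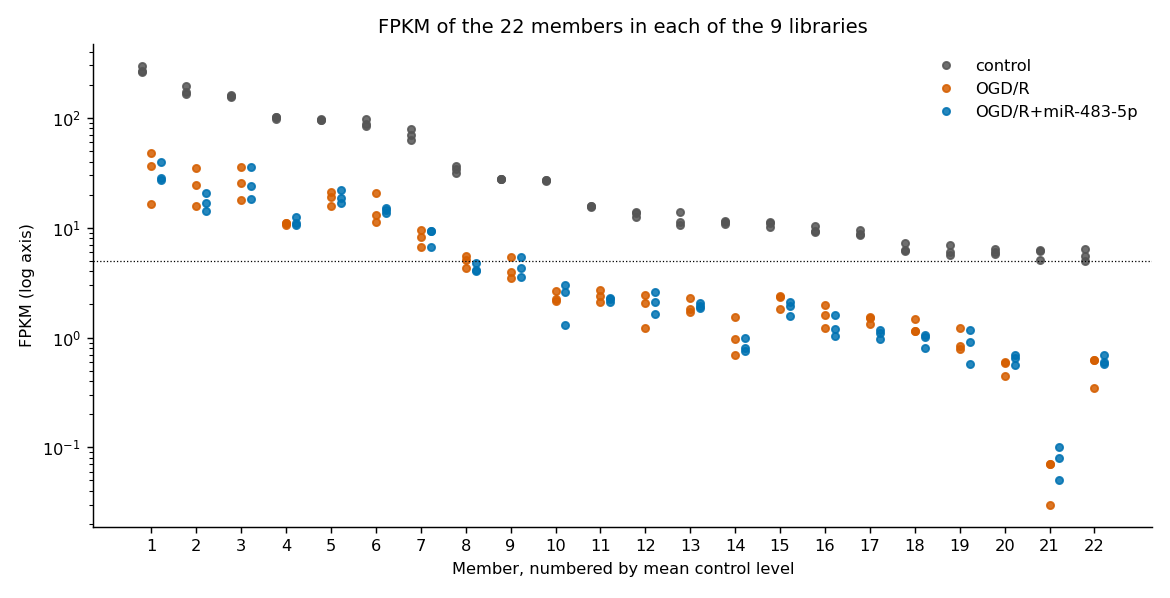
FPKM (log axis) of the 22 genes in each of the 9 libraries, with genes numbered by their mean control level; each point is 1 library and the dotted line is the control floor of 5 FPKM. In all 22 genes the 3 control points stand together above the 6 others, as the rule required, and gene 21 lies far below the rest after OGD/R.

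The most abundant was gene 1 (ENSRNOG00000000239), with 296.54, 261.56 and 267.87 FPKM in the control libraries, 36.6, 48.26 and 16.39 FPKM in the OGD/R libraries and 27.05, 28.37 and 39.92 FPKM in the mimic libraries. Its control level was above that of 95.8% of the expressed genes, and its mean over the 6 libraries was 8.40-fold lower. OGD/R replicate 3 was the lowest library and OGD/R replicate 2 the highest, so the OGD/R libraries alone spanned the whole range of the mimic libraries.
Gene 2 had 165.68, 194.89 and 172.6 FPKM in the control libraries, 24.37, 35.05 and 15.75 FPKM in the OGD/R libraries and 14.23, 16.83 and 20.89 FPKM in the mimic libraries. Gene 3 had 154.3, 159.64 and 157.32 FPKM in the control libraries, 25.52, 35.38 and 17.79 FPKM in the OGD/R libraries and 18.37, 23.74 and 35.46 FPKM in the mimic libraries. The coefficient of variation (CV, the SD as a percentage of the mean) of these first 3 genes was 1.70% to 8.59% in the control libraries and 30.2% to 36.5% over the 6 libraries.

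Gene 4 stood against them in steadiness. It had 97.56, 100.64 and 102.42 FPKM in the control libraries, 10.5, 11.1 and 11.07 FPKM in the OGD/R libraries and 10.5, 11.06 and 12.57 FPKM in the mimic libraries. Its CV over the 6 libraries was 6.81%, the lowest of the 22 genes, at 11.1% of its control mean.
Gene 5 kept the largest share of the 22, 19.8% of its control mean, with 94.84, 96.83 and 94.5 FPKM in the control libraries, 18.93, 21.13 and 15.66 FPKM in the OGD/R libraries and 16.77, 18.6 and 22.25 FPKM in the mimic libraries. Gene 6 had 84.18, 96.54 and 87.28 FPKM in the control libraries, 13.04, 20.51 and 11.3 FPKM in the OGD/R libraries and 13.47, 14.48 and 15.07 FPKM in the mimic libraries. Gene 7 had 63.12, 79 and 69.54 FPKM in the control libraries, 8.23, 9.48 and 6.68 FPKM in the OGD/R libraries and 6.62, 9.35 and 9.39 FPKM in the mimic libraries. In genes 5, 6 and 7, as in genes 1 to 4, the highest of the 6 libraries was OGD/R replicate 2 or mimic replicate 3.

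The next 3 genes, at 26.8 to 34.0 FPKM in the control libraries, split in how far they were lost. Gene 8 had 31.45, 36.63 and 33.84 FPKM in the control libraries, 5.03, 5.47 and 4.33 FPKM in the OGD/R libraries and 4.16, 4.78 and 4.05 FPKM in the mimic libraries. Gene 9 had nearly identical controls, at 27.44, 27.6 and 27.44 FPKM, then 5.36, 3.92 and 3.48 FPKM in the OGD/R libraries and 3.55, 4.3 and 5.45 FPKM in the mimic libraries.
Gene 10 started from a level close to that of gene 9 but ended lower. It had 26.41, 26.89 and 27.24 FPKM in the control libraries, 2.14, 2.23 and 2.66 FPKM in the OGD/R libraries and 1.29, 2.57 and 3.01 FPKM in the mimic libraries. Its mean over the 6 libraries was 11.6-fold below control, against 6.33-fold for gene 9, and their 6 libraries did not overlap.

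In the 5 genes between 10 and 20 FPKM, the share left in the 6 libraries was 8.62% to 18.9%. Gene 14 was the lowest of these, with 11.43, 10.69 and 11.17 FPKM in the control libraries, 0.97, 1.54 and 0.69 FPKM in the OGD/R libraries and 0.8, 0.75 and 0.99 FPKM in the mimic libraries. Gene 15 was the highest, with 10.07, 11.26 and 11 FPKM in the control libraries, 2.33, 2.41 and 1.82 FPKM in the OGD/R libraries and 1.56, 2.12 and 1.95 FPKM in the mimic libraries. Genes 14 and 15 had like control levels. After OGD/R the lowest library of gene 15 (1.56 FPKM, mimic replicate 1) was barely above the highest of gene 14 (1.54 FPKM, OGD/R replicate 2). FPKM is per length, so levels of different genes can be set side by side, but only roughly.
Genes 11, 12 and 13 kept 14.8% to 16.4% of their control means and lay between 1.23 and 2.7 FPKM in the 6 libraries.

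The 7 genes below 10 FPKM in the control libraries kept 1.15% to 16.9% of their control means and held the furthest loss. Gene 21 (ENSRNOG00000057443) had 5.03, 6.2 and 6.11 FPKM in the control libraries, 0.03, 0.07 and 0.07 FPKM in the OGD/R libraries and 0.1, 0.08 and 0.05 FPKM in the mimic libraries. Its mean over the 6 libraries was 1.15% of control, 86.7-fold lower, and it was the only 1 of the 8853 expressed genes lost 10-fold by the same rule. The deposited values move in steps of 0.01 FPKM, so this fold is coarse.
The other losses were far smaller. After gene 21, the next in order were genes 14 and 10, both 11.6-fold lower, and gene 20, 10.2-fold lower. Gene 20 had 6.35, 6.05 and 5.79 FPKM in the control libraries, 0.6, 0.45 and 0.59 FPKM in the OGD/R libraries and 0.56, 0.65 and 0.7 FPKM in the mimic libraries. Gene 22, with 5, 6.38 and 5.5 FPKM in the control libraries, sat on the floor of the rule in control replicate 1, and had 0.35, 0.62 and 0.63 FPKM in the OGD/R libraries and 0.6, 0.57 and 0.7 FPKM in the mimic libraries. Genes 16 and 19 kept 15% and 14.8% of their control means and lay between 0.58 and 1.99 FPKM in the 6 libraries. Genes 20, 21 and 22 were the 3 genes below 1 FPKM in all 6 libraries.

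No gene was listed at 0 in any library. In all, 4 genes kept under 10% of their control mean, 9 kept 10% to 15%, and 9 kept 15% or more. Across the 22 genes, Spearman's rho between the control level and the share left was 0.20. This is a description over genes that share the same 9 libraries, and the rule limited the range of both measures. The median share left was 14.3% in the 7 genes below 10 FPKM and 15.1% in the 5 between 10 and 20 FPKM. It was 13.6% in the 3 between 20 and 50 FPKM and 11.9% in the 7 above 50 FPKM. These medians did not rise with the level, although rho was positive.

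The 22 genes varied more after OGD/R than in the controls. Across the control libraries their median CV was 6.29%, across the OGD/R libraries 20.2% and across the mimic libraries 15.1%. In all expressed genes the medians were 5.42%, 9.43% and 8.60%. Lower values carry more counting error, and its part in this spread was not tested. By mean control level, the median CV over the 6 libraries was 20.7% below 10 FPKM and 15.8% between 10 and 20 FPKM. It was 20.1% between 20 and 50 FPKM and 21.5% above 50 FPKM. The highest of the 6 libraries was 1.20 to 3.33 times the lowest, with a median of 1.83 times.

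The scatter was shared among the genes. OGD/R replicate 2 was the highest of the 6 libraries in 11 of the 22 genes and mimic replicate 3 in 8, together 19 of 22, while mimic replicate 2 was highest in 0. OGD/R replicate 2 was also the highest library in 35.5% of all expressed genes, mimic replicate 3 in 14.0% and mimic replicate 2 in 12.9%. The lowest library was OGD/R replicate 3 in 8 genes and mimic replicate 1 in 7, together 15 of 22, against 21.6% and 16.7% of all expressed genes. Mimic replicate 2 was the lowest in 1 of the 22 genes and in 26.7% of all expressed genes. The median share of the control mean left in the 22 genes was 14.2%, 17.1% and 12.7% in OGD/R replicates 1 to 3, and 11.2%, 13.4% and 14.4% in mimic replicates 1 to 3. The median expressed gene stood at 83.6%, 85.4% and 81.2%, and 81.1%, 78.8% and 83.8% in the same libraries.

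**Figure D3:**
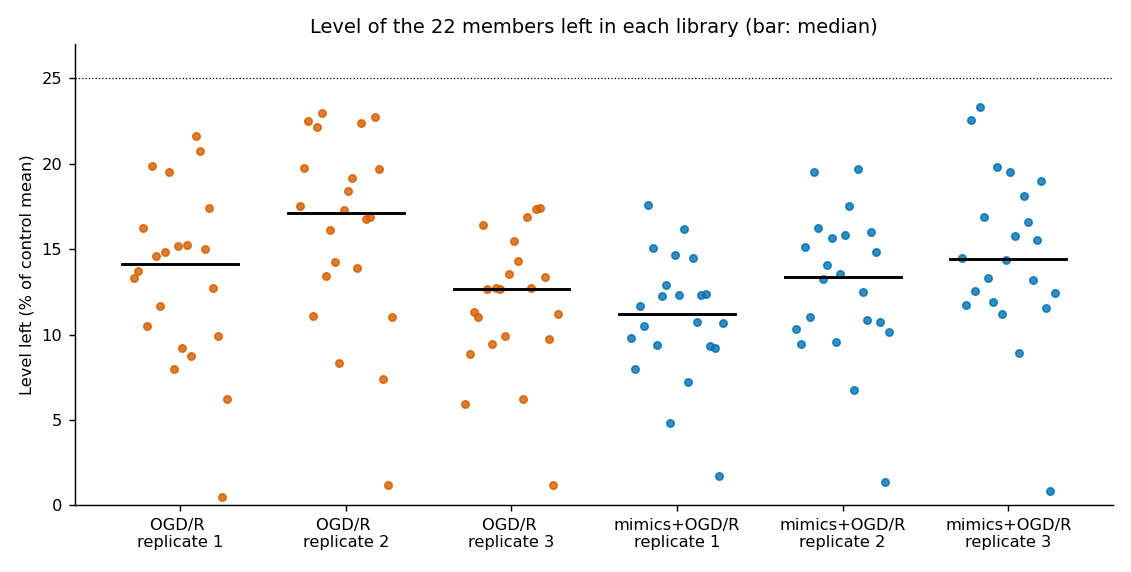
Level of each of the 22 genes in the 6 libraries after OGD/R, as a percentage of its control mean; each point is 1 gene, the black bar the median of the library, and the dotted line 25%. Medians run from 11.2% in mimic replicate 1 to 17.1% in OGD/R replicate 2, and the ranges of the OGD/R and mimic libraries overlap.

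The loss was present in both OGD/R groups, since the rule asked for it in each. Applied to the 3 OGD/R libraries alone, the same limit was met by 30 expressed genes, and applied to the 3 mimic libraries alone by 39, with 22 in both. The 2 comparisons share the control libraries. Against control, the median log2 difference of the 22 genes was -2.72 after OGD/R (range -5.24 to -2.26) and -2.89 with mimics (range -5.06 to -2.32), on the log2(FPKM + 0.1) scale. On this scale the median over features averaging 1 FPKM or more also moved, to -0.23 and -0.26. After upper-quartile scaling, which brought that median to -0.07 and -0.06, the 22 genes stood at a median of -2.55 and -2.69.

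Whether miR-483-5p mimics changed the level left after OGD/R was asked by comparing the 2 OGD/R groups. The rule did not use this difference, but it held both groups under the same limit, so a gene that was lost in one group only could not be among the 22 (8 expressed genes met the limit in the OGD/R libraries only and 17 in the mimic libraries only). How near the groups lie in the 22 genes is therefore partly set by the choice, and the values below say nothing about genes outside it. With limma on log2(FPKM + 0.1) and Benjamini-Hochberg adjustment, 0 of the 22 genes had an adjusted p under 0.05, as for 0% of the 19394 features tested. At an unadjusted p under 0.05 it was 1 of the 22 genes, against 6.87% of all features. The mimic libraries did not overlap the OGD/R libraries in 2 of the 22 genes, both lower with mimics, where 10.1% of all expressed genes did not overlap. The median log2 difference of the 22 genes, mimics minus OGD/R, was -0.02, with 12 genes lower and 10 higher, and the median over all features was 0.

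The 3 genes with the smallest p were all lower with mimics. Gene 17 had 8.82, 9.5 and 8.49 FPKM in the control libraries, 1.34, 1.51 and 1.55 FPKM in the OGD/R libraries and 1.1, 0.97 and 1.18 FPKM in the mimic libraries, a log2 difference of -0.41 (standard error 0.15, adjusted p = 0.684 from limma). Gene 18 had 6.19, 6.3 and 7.19 FPKM in the control libraries, 1.14, 1.49 and 1.14 FPKM in the OGD/R libraries and 0.81, 1.05 and 1.02 FPKM in the mimic libraries, a log2 difference of -0.35 (standard error 0.18, adjusted p = 0.788 from limma). Genes 17 and 18 were the 2 genes without overlap.
The third, gene 2, whose values are given above, had the widest log2 difference of the 22, -0.47 (standard error 0.26, adjusted p = 0.803 from limma), with overlapping groups. Gene 1 (0.03, standard error 0.34) and gene 21 (0.17, standard error 0.23) were as near to 0 as their errors. The standard error had a median of 0.19 over the 22 genes, so a small difference between the groups was not detectable with these libraries. Wider ones also went uncalled, as the -0.41 of gene 17, without overlap, and the -0.47 of gene 2 did not pass. The lack of calls therefore does not show that the groups were equal.

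Without replicate 3 of both groups, which left 2 libraries against 2, the values moved. These 2 libraries were left out because they lay near the other group, so a wider difference between the groups, a smaller spread within them and more calls are built into this choice, and the values are a description of the remaining libraries. The median log2 difference of the 22 genes became -0.23, with 18 genes lower and 4 higher with mimics, and the median over all features was 0. An unadjusted p under 0.05 from limma was found for 6 of the 22 genes and for 4835 of 19056 features. After adjustment gene 2 passed the threshold, with a log2 difference of -0.91 (adjusted p = 0.0490 from limma), as did 823 of 19056 features. Gene 1 moved from 0.03 to -0.60 (adjusted p = 0.0576 from limma). The remaining genes of the 22 did not pass. Whether these 2 libraries carry the right labels was not tested.

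**Figure D4:**
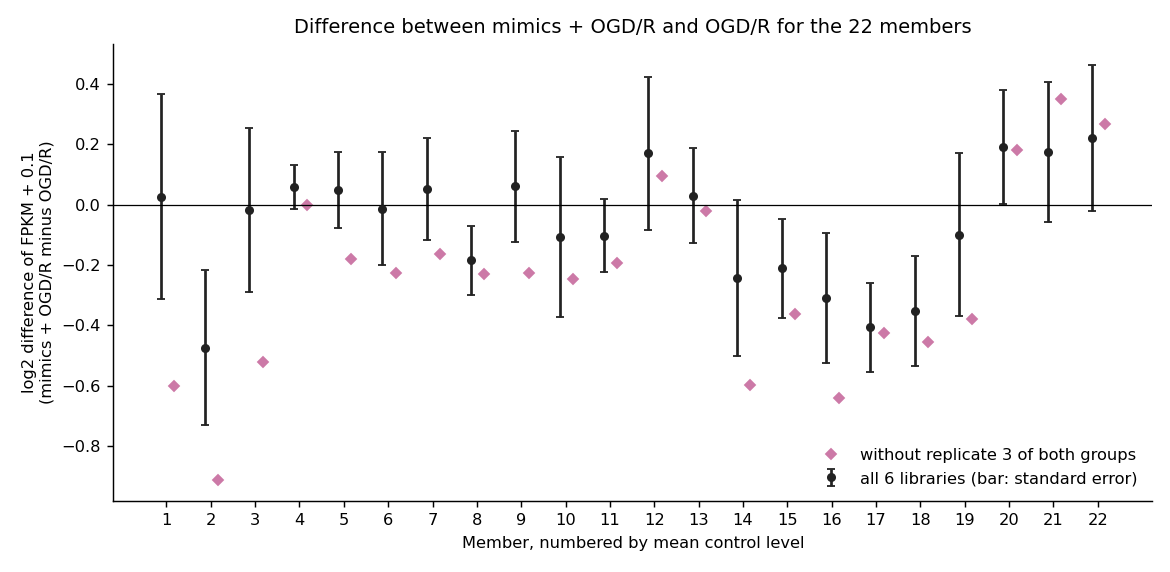
Log2 difference in FPKM + 0.1 between mimics and OGD/R (mimics minus OGD/R) for each of the 22 genes. Black points with standard error bars use all 6 libraries and have a median of -0.02, and pink diamonds leave out replicate 3 of both groups and have a median of -0.23.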

How the data were processed

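RNA of PC12 cells was sequenced in 3 groups of 3 libraries. Adapters, poly-N and low-quality reads were removed, expression was estimated with RSEM (version 1.3.1), and the authors deposited 1 FPKM value per feature and library, rounded to 2 decimals. The submitters' processing notes also name Bowtie2 2.3.3.1 and Cufflinks 2.2.1. The genome build and annotation release are not given in the sources used here, nor which of the 2 library kits in the labels was used for which library. One point of the cell culture is left out.

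The rule was applied to the deposited FPKM (pandas 2.3.3). Differences were estimated with limma (version 3.58.1, R 4.3.3; lmFit, eBayes with trend) on log2(FPKM + 0.1), with all 9 libraries and 3 groups in 1 fit, two-sided, with 19394 features tested after those at 0 in all 9 libraries were left out. The study used a test that needs counts, which FPKM are not. The script was tested on simulated data. Values in every library are printed for the 10 most abundant genes, the 10 lost furthest, the 3 nearest the limit on either side and, as none passed the test of mimics, the 3 with the smallest p. Other genes were summarised.

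The genes, lists and tests were chosen with earlier results of these data known. The planned gene lists, marker lists, promoter motifs and gene features were not used here: the RefSeq table at hand has an empty Ensembl column, so that 0 of the 23426 identifiers could be matched, which says nothing about the genes themselves. Alternatives were other pseudocounts, filters, scalings, limits of the rule, a replicate block, fits of 2 groups and leaving out libraries.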

Additional observations from a re-analysis of the deposited data

Results flagged for a closer look

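The rule took Ensembl identifiers only. Among the assembled loci, which have no such identifier and stand above only within the counts and fits over all features, 1 met the same limits, which drew attention to it. It had 6.02, 6.49 and 6.83 FPKM in the control libraries, 1.29, 1.19 and 0.38 FPKM in the OGD/R libraries and 0.64, 1.05 and 1.47 FPKM in the mimic libraries, so 15.6% of its control mean was left. OGD/R replicate 3 was its lowest library and mimic replicate 3 its highest. No test of outlying libraries was run on the groups of 3.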

How the results depend on the processing

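The number of genes followed the limits. It was 43 with a control floor of 1 FPKM, 83 with a limit of 3-fold, 12 with 5-fold, 3 with 8-fold, 87 with group means in place of single libraries and 13 after quantile normalization, against 22. Leaving out 1 library gave 22 to 34, the 34 without OGD/R replicate 2; leaving out a library can only relax the rule, so the 22 genes stay by construction. The test of mimics against OGD/R called 0 features after adjustment and 1333 without it (limma, threshold 0.05). The adjusted count became 9 with a pseudocount of 0.01, 0 to 11 when 1 library was left out, the 11 without mimic replicate 2, and 823 without replicate 3 of both groups, where 1 of the 22 genes passed and their median log2 difference was -0.23. That pair was left out for lying near the opposite group, which builds in more calls. With 1 library left out the median ranged from -0.18 to 0.10, and it was 0.01 with either scaling, so its sign is not stable. The log2 difference of ENSRNOG00000000239 turned to -0.42 without OGD/R replicate 3, to -0.15 without mimic replicate 3 and to -0.60 without both. It ranged from -0.42 to 0.35 when 1 library was left out. The cause was not tested. Same-numbered libraries share only a number: their deviations from the group means correlated at 0.05, -0.03 and 0.03 between control and OGD/R, at 0.06, 0.22 and 0.0042 between control and mimics, and at -0.17, -0.26 and -0.47 between OGD/R and mimics, and not every library correlated best with its own number. With the replicate block, limma called 8147 features for OGD/R against control (8913 without it), 8915 for mimics against control (9622 without it), and 0 features for mimics against OGD/R, as without it. Both counts against control stayed within 1.5 times of those without the block in every alternative. Depth is unknown, which limits genes below 1 FPKM, such as ENSRNOG00000057443.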
